A study of Mus musculus with 6 samples.

Results

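Decorin (Dcn) and 9 further small leucine-rich proteoglycan genes, Bgn, Lum, Fmod, Ogn, Omd, Prelp, Aspn, Podn and Epyc, were described among 22180 genes measured in mouse prostate cancer cells. The 10 genes are part of that family and were listed with earlier results of these data known. The family was chosen by the log2 difference of Dcn between PIM1 and EV cells. That difference was one of the largest in the only comparison of the study. Values of Dcn are therefore given without a test, and calls of the other 9 genes come from that same comparison and are no independent support. All 10 genes had at least 1 probe set annotated to a single gene symbol, 13 probe sets in all, and no gene was removed by a filter on low signal.

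The cells were prostate epithelial cancer cells from Rb1F/F:Trp53F/F:PB-Cre4 mice, in which a Cre recombinase driven by the probasin promoter, active in prostate epithelium, deletes Rb1 and Trp53. PIM1 cells were infected with a lentivirus carrying PIM1, a serine/threonine kinase (3 arrays), and EV cells with a lentivirus of the empty vector (3 arrays). Both groups share the deletion of Rb1 and Trp53 and a medium with charcoal-stripped serum, pituitary extract, epidermal growth factor, cholera toxin and an insulin, transferrin and selenium supplement. The sources used here do not give the age of the mice, the number of lines or clones, the time after infection or the species of the PIM1 insert.

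Small leucine-rich proteoglycans are secreted proteins built around a curved stack of leucine-rich repeats, and most carry chains of chondroitin, dermatan or keratan sulfate. They bind collagen and set the width and spacing of its fibrils, and several also bind growth factors or receptors, decorin being known as a ligand of TGF-beta and of the receptor tyrosine kinases EGFR and MET. In prostate and other glands decorin and biglycan are products mainly of stromal fibroblasts rather than of epithelium.

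Values are log2 signals of a whole-transcript array as the authors deposited them, differences are PIM1 minus EV, and groups are given as mean ± SD with n = 3 arrays each. Adjusted p is that of limma over all 22180 genes, and "called" means an adjusted p under 0.05. No label says that the arrays of a group came from separate cultures, so p-values speak only to the variation among these 6 arrays, part or all of which may be technical. Probe sets differ in brightness, so levels of different genes are not compared with each other.

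Array medians were 3.38 to 3.42 in PIM1 and 3.49 to 3.52 in EV, and arrays correlated at 0.9941 to 0.9965 within PIM1, at 0.9904 to 0.9906 within EV and at 0.9633 to 0.9668 between the groups. Pim1 signal was 7.11, 6.89 and 6.97 on PIM1 arrays, against 5.26, 6.25 and 5.23 on EV arrays, EV replicate 2 being the highest of its group. The signal of 1105 olfactory receptor genes was taken as a gauge of low signal, though not all need be silent in prostate cells. Their 5th to 95th percentile was 1.17 to 3.18 in PIM1 and 1.29 to 3.37 in EV. Of 13 measured luminal and basal prostate epithelial markers, 0 were called higher and 3 lower in PIM1 by limma (0 and 6 at an unadjusted p under 0.05). The markers counted only without adjustment had means inside that olfactory range in both groups. The called shares are 0% and 23.1%, beside 16.1% and 10.9% of all genes. Epcam, an adhesion protein of most epithelia, lay inside the olfactory range at 2.35 ± 0.061 in PIM1 and 2.50 ± 0.026 in EV, although it is a defining marker of the labelled cell type. Krt18, a keratin of simple epithelium, read 4.79, 4.88 and 5.02 on PIM1 arrays, against 9.09, 9.12 and 9.21 on EV arrays. The partner keratin Krt8 was not called (4.65 ± 0.15 in PIM1, 4.73 ± 0.095 in EV).

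The 10 genes split into 4 with differences above 3 on the log2 scale and 6 with differences under 0.5. Dcn, Bgn, Prelp and Podn made up the high set, and the 4 lie on 4 different chromosomes. Lum, Aspn, Ogn, Fmod, Epyc and Omd made up the low set. Of the 9 genes other than Dcn, 5 were called higher and 0 lower by limma (6 and 0 at an unadjusted p under 0.05), where 27.0% of all genes were called, 16.1% higher and 10.9% lower. For 7 of the 10 genes all PIM1 values lay on one side of all EV values, as they did for 43.2% of all genes. Nothing is read from these counts, since the comparison chose the family. The median difference of the 10 genes was 0.43, and that of all genes was -0.053. In bulk RNA a change in the share of cells that make a transcript and a change in its amount per cell cannot be told apart.

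**Figure D1:**
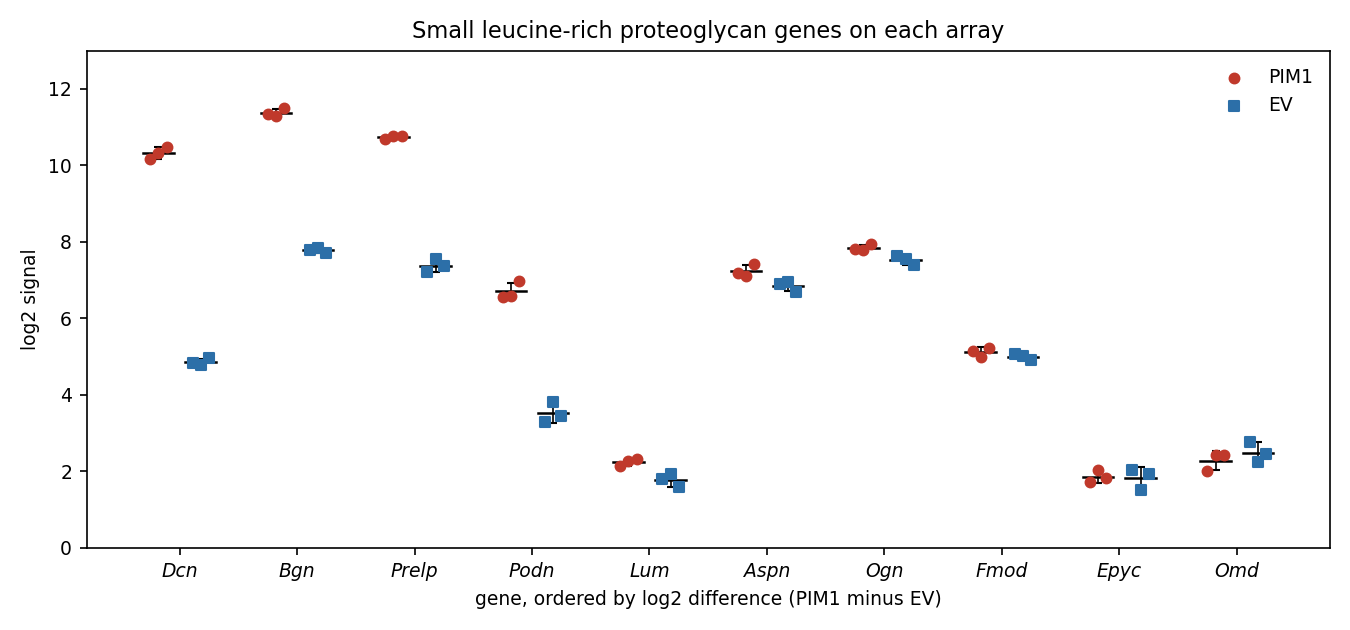
Log2 signal (y axis) of the 10 small leucine-rich proteoglycan genes (x axis) on each of the 3 PIM1 arrays (red circles) and 3 EV arrays (blue squares), with mean bars and SD whiskers. Dcn, Bgn, Prelp and Podn stand well apart between the groups, Lum, Aspn and Ogn are narrowly separated, and Fmod, Epyc and Omd overlap.

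Dcn, whose product decorin carries a single dermatan or chondroitin sulfate chain and binds collagen fibrils, had the widest gap (probe set 17236800, chromosome 10). Its signal was 10.18, 10.33 and 10.49 on the PIM1 arrays, against 4.84, 4.77 and 4.95 on the EV arrays. Every PIM1 array lay more than 5 log2 units above every EV array. The group means were 10.33 ± 0.16 in PIM1 and 4.85 ± 0.094 in EV, a difference of 5.48 (95% interval 5.21 to 5.74) or 44.5-fold. The EV signal lay above the olfactory receptor range. Dcn ranked 8 of 22180 by size of rise. The genes just above it were Rasl11a (5.49), Cxcl15 (5.73) and Cxcl5 (5.78), and those just below it were Ch25h (5.40), Ptx3 (5.31) and Lgi2 (5.29).

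Bgn encodes biglycan, the closest relative of decorin, which can also signal through Toll-like receptors when it is released from the matrix. It read 11.34, 11.28 and 11.50 on the PIM1 arrays, against 7.78, 7.83 and 7.71 on the EV arrays (probe set 17535558, X chromosome). The spread inside either group was far smaller than the gap between the groups. The difference was 3.60 (95% interval 3.36 to 3.83, 12.1-fold, limma adjusted p = 3.93e-07). Another, dimmer Bgn probe set, 17542364, read 7.59, 7.93 and 6.61 in PIM1, against 5.96, 6.22 and 5.13 in EV. Replicate 3 was the lowest array of both groups on that probe set, and the groups still did not overlap. Its difference was smaller, 1.60, and was called over all 23521 probe sets with 1 symbol (limma adjusted p = 0.0149).

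Prelp encodes a heparin-binding member of the family that links basement membranes to the underlying collagen. It read 10.68, 10.76 and 10.78 on the PIM1 arrays, against 7.21, 7.56 and 7.38 on the EV arrays (probe set 17227077, chromosome 1). The 3 PIM1 arrays were closer to each other than the EV arrays were. The difference was 3.36 (95% interval 3.10 to 3.63, 10.3-fold, limma adjusted p = 7.73e-07). The second Prelp probe set, 17217369, was much dimmer, at 4.57, 4.64 and 4.15 in PIM1 against 4.07, 3.61 and 4.16 in EV. Its groups overlapped and it was not called (difference 0.51, limma adjusted p = 0.0817 over all probe sets). With the 2 probe sets averaged the Prelp difference was 1.93 and was still called (limma adjusted p = 7.81e-06).

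Podn encodes podocan, a collagen-binding member of a separate class of the family, described in kidney and arterial wall. It read 6.56, 6.59 and 6.97 on the PIM1 arrays, against 3.29, 3.81 and 3.45 on the EV arrays (probe set 17427970, chromosome 4). PIM1 replicate 3 was the highest array, and the lowest PIM1 array was well above the highest EV array. The difference was 3.19 (95% interval 2.80 to 3.57, 9.11-fold, limma adjusted p = 6.08e-06). The EV mean of 3.52 lay just above the 95th percentile of the olfactory receptors (3.37). By size of rise Bgn, Prelp and Podn ranked 56, 69 and 83 of 22180, and 0.419% of all genes were called with a rise of at least 3. The 95% intervals of these 3 differences overlapped one another. Dcn was chosen for its rise, so its interval is not set against theirs.

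**Figure D2:**
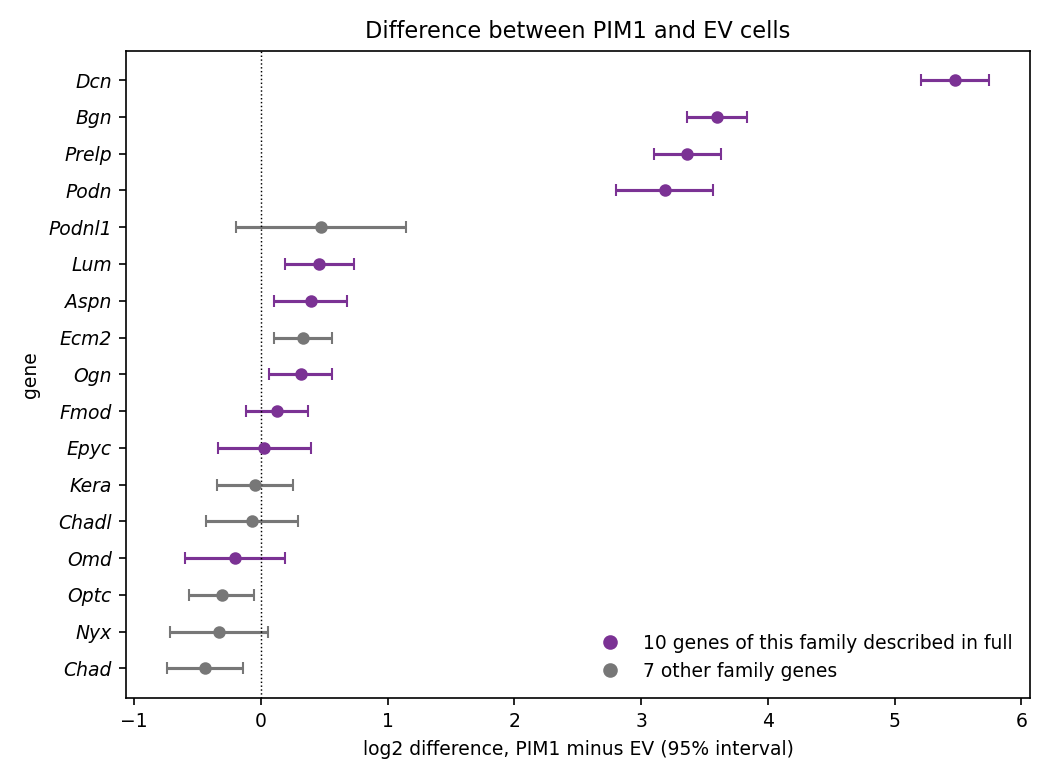
Log2 difference, PIM1 minus EV (x axis), with its 95% interval for the 10 genes described in full (purple) and 7 other family genes (grey), in order of size (y axis). Dcn at 5.48 and Bgn, Prelp and Podn at 3.60, 3.36 and 3.19 stand apart from the other 13 genes, which lie between -0.44 and 0.47.

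The 6 remaining genes differed little. Lum encodes lumican, a keratan sulfate proteoglycan of cornea and connective tissue, and it read 2.13, 2.27 and 2.31 on the PIM1 arrays, against 1.80, 1.94 and 1.59 on the EV arrays (probe set 17236811). The groups did not overlap, but all 6 values lay inside the olfactory receptor range. The difference was 0.46 (95% interval 0.19 to 0.74, limma adjusted p = 0.0230). Lum was not called without EV replicate 3, PIM1 replicate 2 or PIM1 replicate 3 (limma adjusted p = 0.0606, 0.0794 and 0.0734).

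Aspn encodes asporin, a decorin relative that binds collagen and TGF-beta and in general carries no sulfated chain. It read 7.20, 7.10 and 7.42 on the PIM1 arrays, against 6.91, 6.95 and 6.69 on the EV arrays (probe set 17287160). The lowest PIM1 array exceeded the highest EV array by a small step. The difference was 0.39 (95% interval 0.11 to 0.68, limma adjusted p = 0.0490), and it was called under 4 of 14 alternative settings. Without single arrays, any of the 6, its adjusted p was 0.0574 to 0.134.

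Ogn encodes osteoglycin, also called mimecan, another regulator of fibril width. It read 7.80, 7.78 and 7.93 on the PIM1 arrays, against 7.65, 7.54 and 7.39 on the EV arrays (probe set 17287175). The groups did not overlap, and the difference of 0.31 (95% interval 0.065 to 0.56) was not called (limma adjusted p = 0.0657). It was called under 3 of 14 alternative settings, median centring of the arrays among them (0.41, limma adjusted p = 0.0240).

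Fmod, Omd and Epyc overlapped between the groups. Fmod encodes fibromodulin, a tendon proteoglycan that competes with lumican for a site on collagen, and read 5.15, 5.00 and 5.23 on the PIM1 arrays, against 5.07, 5.02 and 4.90 on the EV arrays (probe set 17217373). Its difference was 0.13 (95% interval -0.12 to 0.37, limma adjusted p = 0.416), and its dimmer second probe set differed by 0.25 (limma adjusted p = 0.553 over all probe sets). Omd, the gene of the bone protein osteomodulin, averaged 2.28 ± 0.24 in PIM1 and 2.49 ± 0.27 in EV (difference -0.21, 95% interval -0.60 to 0.19, limma adjusted p = 0.421). Epyc, the gene of the growth plate proteoglycan epiphycan, averaged 1.85 ± 0.16 in PIM1 and 1.83 ± 0.29 in EV (difference 0.025, 95% interval -0.34 to 0.39, limma adjusted p = 0.928). Omd and Epyc means lay inside the olfactory receptor range in both groups, so a fall could hardly have been seen.

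Of 7 other measured family genes, 1 was called higher and 1 lower (14.3% each, beside 16.1% and 10.9% of all genes). Ecm2, a decorin relative, differed by 0.33 (limma adjusted p = 0.0395), and Chad, the gene of the cartilage protein chondroadherin, by -0.44 (limma adjusted p = 0.0379). Both group means of Ecm2 lay inside the olfactory receptor range. Ecm2 was not called when either EV replicate 1, EV replicate 2 or any PIM1 array was left out (limma adjusted p = 0.0696 to 0.132). Nor was it called with the trend and robust options of limma (adjusted p = 0.0863) or with the replicate block (0.0817). Chad was not called under any of the 3 rescalings of the arrays, nor with the trend and robust options (limma adjusted p = 0.0503). Chad was also not called when any array except PIM1 replicate 2 was left out. The eye gene Optc (opticin), the cornea gene Kera (keratocan), the retina gene Nyx (nyctalopin), Podnl1 and Chadl were not called, with differences of -0.31, -0.046, -0.33, 0.47 and -0.069. Optc was called lower under quantile normalization, under cyclic loess, among the brighter genes and without EV replicate 3 (limma adjusted p = 0.0312 to 0.0401). The sign of the Kera difference turned under each rescaling of the arrays, and that of Chadl under median centring.

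Most of these genes lie in clusters, in which neighbouring genes had unlike differences. On chromosome 10 the order of family genes is Dcn, Lum, Kera and Epyc, and their differences were 5.48, 0.46, -0.046 and 0.025. The log2 ratio of Dcn to Lum within an array was 8.04, 8.06 and 8.18 in PIM1, against 3.04, 2.83 and 3.36 in EV. The means of Lum, Kera and Epyc lay inside the olfactory receptor range in both groups, so this ratio mainly restates the signal of Dcn. On chromosome 1 the order is Optc, Prelp and Fmod, with differences of -0.31, 3.36 and 0.13. The log2 ratio of Prelp to Fmod was 5.53, 5.76 and 5.55 in PIM1, against 2.14, 2.53 and 2.47 in EV. These ratios show unequal change and say nothing of the relative levels of the genes. On chromosome 13 Ecm2, Aspn, Omd and Ogn differed by 0.33, 0.39, -0.21 and 0.31. Bgn and Podn had no other measured family gene within 3 places.

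Genes of other families lie around these loci. Of 31 measured genes lying inside the 5 loci or within 3 places of them, 6 were called higher and 4 lower, beside 16.1% and 10.9% of all genes. Btg1, an antiproliferative gene 3 measured places from Dcn, was higher by 1.33, and next to Fmod its relative Btg2 by 1.503. Gm8672, near Ogn, was higher by 0.91. Near Podn, Scp2, a sterol carrier protein gene, was higher by 1.06, Echdc2 by 0.94 and Cpt2, a mitochondrial fatty acid enzyme, by 0.70. Dusp9, a phosphatase of MAP kinases near Bgn, fell by 1.48, Atp2b4, a calcium pump gene beside Optc, fell by 1.0045, the splicing factor gene Snrpe fell by 0.71 and the nucleolar protein gene Nol8 fell by 0.60.

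**Figure D3:**
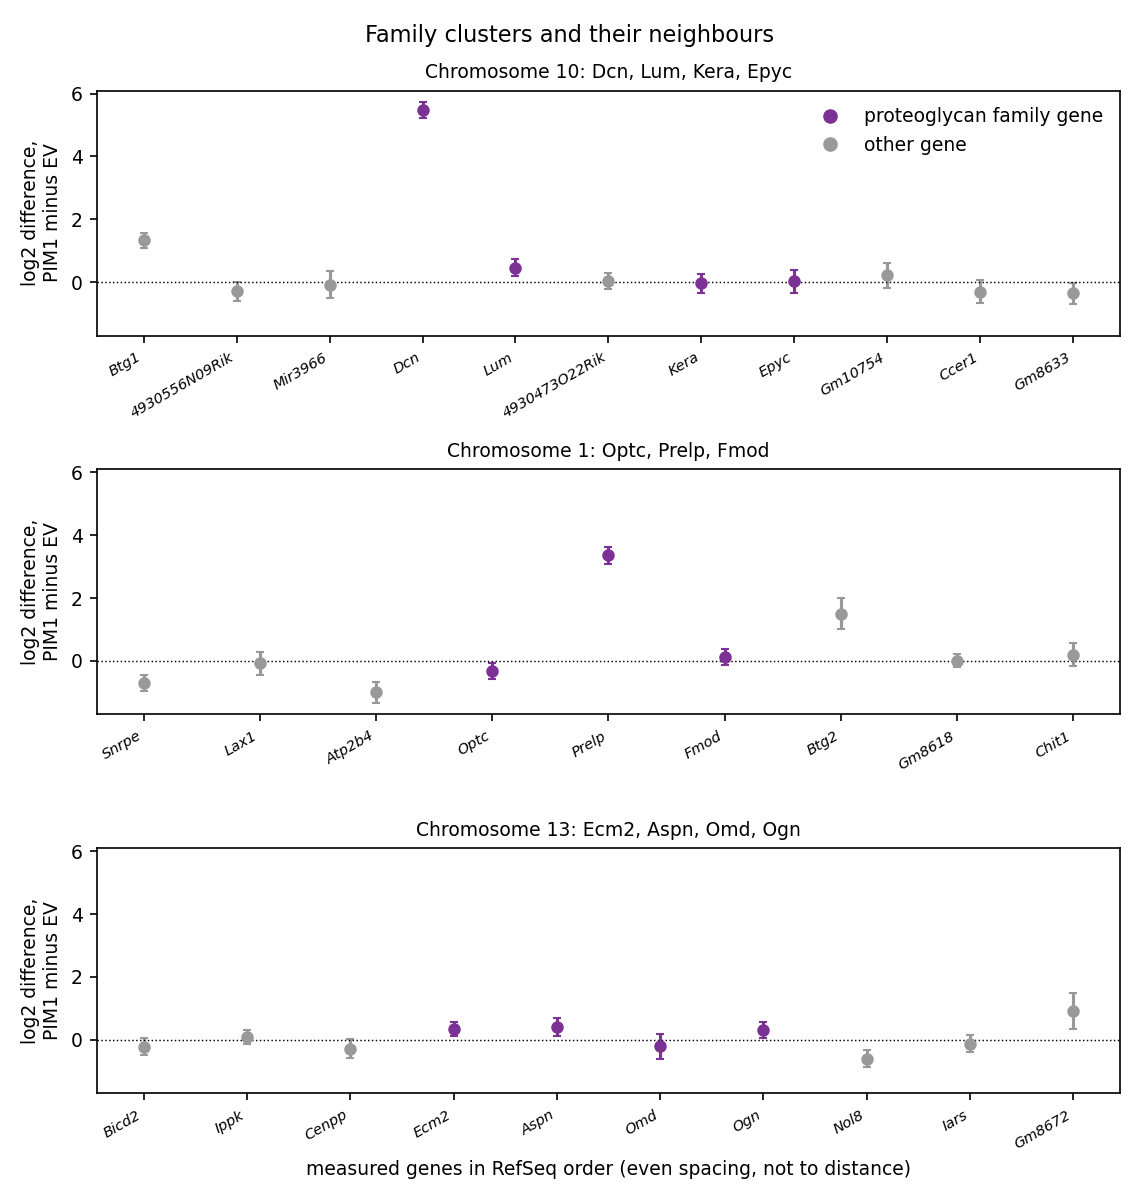
Log2 difference, PIM1 minus EV, with its 95% interval (y axis) for measured genes in RefSeq order (x axis, even spacing) around the family clusters of chromosomes 10, 1 and 13, family genes in purple and other genes in grey. Dcn and Prelp stand alone at 5.48 and 3.36 while the family genes beside them lie between -0.31 and 0.46.

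Promoter sequences are shown to set genes with large differences beside relatives without. The RefSeq promoter table, build GRCm38.p6, held 8 of the 10 genes, and it held no entry for Dcn and Lum. The 250 bases before the transcript start are printed for Bgn, Prelp and Podn, which were called with differences above 3, for Fmod, the neighbour of Prelp, and for Aspn, a near relative of Bgn. Capitals mark matches on either strand to the TATA box (TATAAA), AP-1 (TGANTCA), C/EBP (TTNCNNAA), a 10-base NF-kappaB consensus or STAT (TTCNNNGAA), where N is any base.
Bgn promoter, GRCm38.p6 chrX:73483351-73483600, plus strand: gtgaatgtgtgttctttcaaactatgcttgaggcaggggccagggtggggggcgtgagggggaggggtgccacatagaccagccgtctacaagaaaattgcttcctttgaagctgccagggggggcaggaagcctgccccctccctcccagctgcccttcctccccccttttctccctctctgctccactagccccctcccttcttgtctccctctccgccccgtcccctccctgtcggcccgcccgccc
Prelp promoter, GRCm38.p6 chr1:133921402-133921651, minus strand: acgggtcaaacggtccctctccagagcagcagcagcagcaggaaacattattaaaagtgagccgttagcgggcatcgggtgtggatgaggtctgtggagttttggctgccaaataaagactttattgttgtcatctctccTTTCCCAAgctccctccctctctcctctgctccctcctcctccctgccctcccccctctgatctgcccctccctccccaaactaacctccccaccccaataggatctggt
Podn promoter (first of 2 in the table), GRCm38.p6 chr4:108031955-108032204, minus strand: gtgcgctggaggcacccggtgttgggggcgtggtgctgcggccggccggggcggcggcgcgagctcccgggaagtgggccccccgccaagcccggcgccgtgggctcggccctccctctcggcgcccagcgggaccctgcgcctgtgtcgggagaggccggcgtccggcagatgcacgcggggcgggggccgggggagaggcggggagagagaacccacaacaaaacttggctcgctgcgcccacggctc
Fmod promoter, GRCm38.p6 chr1:134037004-134037253, plus strand: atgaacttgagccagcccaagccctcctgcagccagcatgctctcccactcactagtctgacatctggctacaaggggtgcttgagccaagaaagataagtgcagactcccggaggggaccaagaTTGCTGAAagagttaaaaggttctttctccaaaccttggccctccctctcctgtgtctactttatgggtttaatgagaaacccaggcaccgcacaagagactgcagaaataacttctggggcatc
Aspn promoter, GRCm38.p6 chr13:49544193-49544442, plus strand: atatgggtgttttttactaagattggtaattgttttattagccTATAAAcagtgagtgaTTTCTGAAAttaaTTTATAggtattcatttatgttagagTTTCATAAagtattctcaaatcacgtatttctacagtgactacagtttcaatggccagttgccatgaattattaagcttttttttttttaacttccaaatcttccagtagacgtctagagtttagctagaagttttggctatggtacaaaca

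No match to the AP-1, NF-kappaB or STAT letters lay in these windows of the 8 genes, which says only that these letters are not in the window. Among all 32851 promoters of the same length 6.75%, 4.11% and 7.02% held them. Prelp and Fmod had 1 C/EBP match each, Aspn had 3, of which 2 overlap, the 2 Epyc windows had 1 and 4, and 36.8% of all promoters held at least 1. Aspn and Ogn had 2 TATA matches each, those of Ogn overlapping, and 12.4% of all promoters held 1. The E-box letters (CANNTG), not capitalised, occurred once each before Bgn, Fmod and Aspn and in the printed Podn window. They occurred 3 times in the second Podn window and before Ogn, 2 times in the second Epyc window and not before Prelp and Omd, beside 66.2% of all promoters that held them. G and C made up 64.4%, 55.6% and 78.0% of the printed Bgn, Prelp and Podn windows, against 51.2% for Fmod, 42.0% for Ogn, 38.4% for Omd and 30% for Aspn. The second Podn window had 64.0%, the 2 Epyc windows 39.2% and 31.2%, and the median of all promoters was 52.4%. These are descriptions of 8 genes, chosen after their differences were known.

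By a distance that depends on the size of the difference, the genes nearest to Dcn over the 6 arrays were not family members. With profiles centred on their own means and predicted loci left out, the 5 nearest were Cxcl15 (0.34), Ch25h (0.40), Ptx3 (0.41), Rasl11a (0.48) and Chl1 (0.50), in log2 units. By size of rise these ranked 6, 9, 10, 7 and 12, around Dcn itself, so the distance mostly follows the value that chose the family. Cxcl15 encodes a chemokine, Ch25h an enzyme that makes an oxysterol, Ptx3 a soluble pattern recognition protein, Rasl11a a small GTPase and Chl1 a neural adhesion protein. Bgn, Prelp and Podn lay at 2.32, 2.61 and 2.85, with smaller differences. Their Pearson correlations with Dcn over the 6 arrays were 0.999, 0.997 and 0.993, and 580 genes had one above 0.99. Those of the 5 genes nearest by distance were 0.99745 to 0.99979, so by correlation Bgn lay among them. All points share the 2 well-separated groups of arrays.

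Enzymes that build the chondroitin and dermatan sulfate chains of decorin and biglycan were in part higher. Of 25 measured genes 8 were called higher and 1 lower (median difference 0.14, beside -0.053 for all genes and 16.1% and 10.9% called). The other 16 were not called, among them Chsy1 (0.12), Chsy3 (0.14), Chpf (-0.068) and Chst14 (-0.18). Csgalnact2 and Xylt2, the paralogs of Csgalnact1 and Xylt1, were also not called (-0.21 and 0.015). Csgalnact1, which adds the first N-acetylgalactosamine of a chondroitin chain, read 7.35, 7.34 and 7.52 in PIM1, against 5.03, 4.96 and 5.05 in EV. Its difference was 2.39 (limma adjusted p = 2.03e-06), and the groups lay far apart. Xylt1, which attaches the xylose that starts every such chain to the core protein, read 5.58, 5.65 and 5.83 in PIM1 and 4.16, 4.14 and 4.25 in EV (difference 1.505, limma adjusted p = 2.77e-05). Papss2, which makes the sulfate donor, rose by 2.06, and its paralog Papss1 rose by 0.62. Pxylp1, a phosphatase of the linkage xylose, rose by 1.07, Dse, the epimerase that turns chondroitin into dermatan sulfate, by 1.0021, Ugdh, which makes UDP-glucuronic acid, by 0.94, and the linkage enzyme gene B3galt6 by 0.86. The sulfotransferase gene Chst11 was lower by 0.49 (limma adjusted p = 0.0298), and it was not called under median centring (0.0687), the replicate block (0.0616) or without EV replicate 1 or 2 or PIM1 replicate 1 or 2 (0.0808 to 0.105).

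Keratan sulfate enzymes, which serve lumican, fibromodulin and keratocan, moved both ways. Of 10 measured genes 3 were called higher and 3 lower (30% each, beside 16.1% and 10.9% of all genes), with a median difference of 0.039. St3gal1, a sialyltransferase, rose by 2.03, the galactosyltransferase gene B4galt1 by 0.83 and the sulfotransferase gene Chst2 by 0.73. Chst1, the sulfotransferase that acts on galactose of keratan sulfate, fell by 1.02, its relative Chst5 by 0.65 and B4galt4 by 0.77.

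Collagens and crosslinking enzymes, the binding partners of the family, were mostly higher. Of 16 measured genes 10 were called higher and 1 lower (62.5% and 6.25%, beside 16.1% and 10.9% of all genes), with a median difference of 0.85. Col6a3, Col6a2 and Col6a1, the chains of the beaded-filament collagen that binds decorin and biglycan, rose by 2.13, 1.34 and 1.17. Col3a1, Col1a1 and Col1a2, chains of the main fibrillar collagens, rose by 1.18, 1.02 and 0.91, and Lox, the crosslinking oxidase, rose by 1.21. Col11a1, a chain of cartilage fibrils, fell by 1.01.

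**Figure D4:**
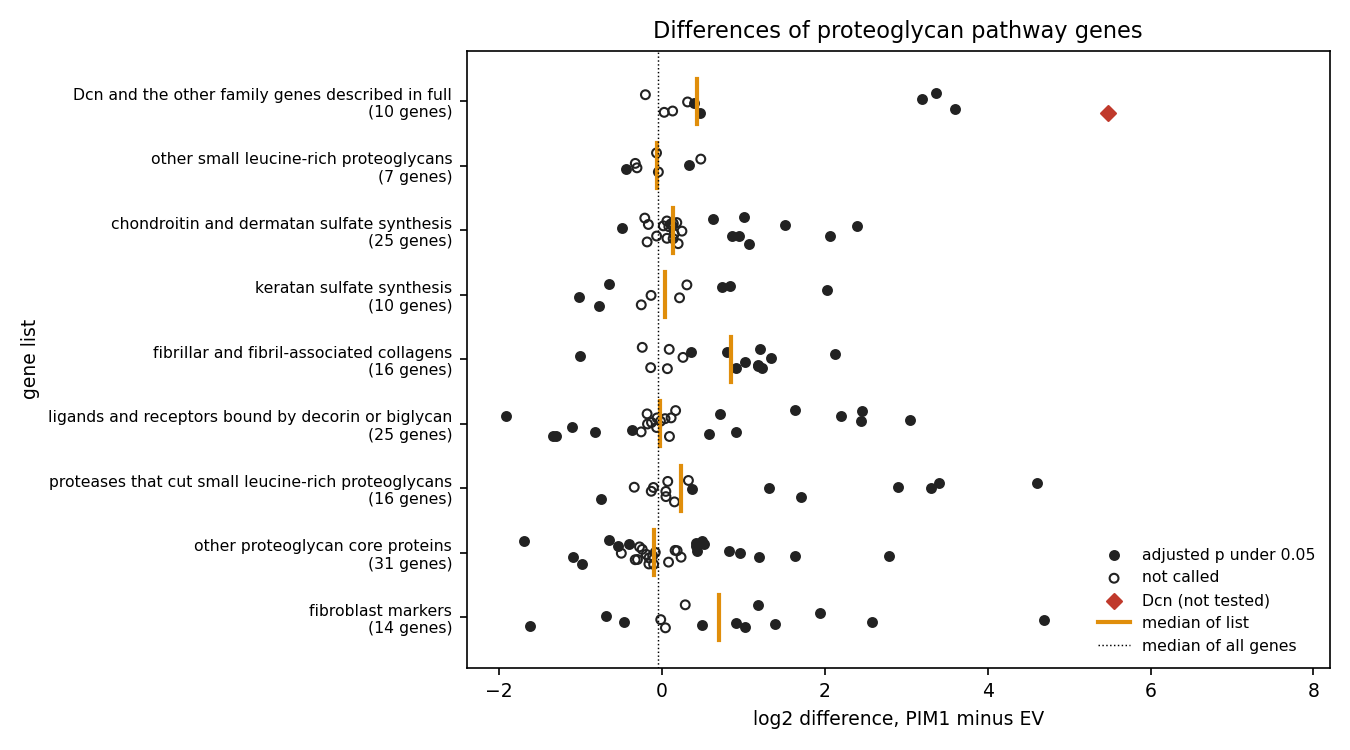
Log2 difference, PIM1 minus EV (x axis), of each measured gene of 9 lists (y axis), filled where adjusted p was under 0.05, open where not called, a red diamond for Dcn (not tested), with the list median in orange and the median of all genes (-0.053) dotted. Every list has genes on both sides of 0, and the list medians lie between -0.10 and 0.85, the collagens having the highest.

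Among 25 measured ligands and receptors of decorin or biglycan, 8 were called higher and 6 lower (median difference -0.021). These are 32% and 24%, beside 16.1% and 10.9% of all genes. Receptors that biglycan engages were among the higher ones. Tlr2, a Toll-like receptor, read 8.0004, 8.07 and 7.99 in PIM1, against 5.26, 4.90 and 4.78 in EV (difference 3.04, limma adjusted p = 2.80e-06). The purinergic receptor genes P2rx4 and P2rx7 rose by 2.46 and 2.44, and the co-receptor gene Cd14 by 2.20. Tlr4 rose by 0.57 (limma adjusted p = 0.0316), and it was not called without EV replicate 1 or 3 or PIM1 replicate 2 or 3 (0.0573 to 0.0961). Cd14 also marks macrophages, and of 11 macrophage and leukocyte markers 1 was called higher, Cd14 itself, and 1 lower, Csf1r (-1.35). Their summed linear signal was 275 to 325 in PIM1 and 164 to 180 in EV. Without Cd14 the other 10 markers summed to 84.3 to 89.5 in PIM1 and 119 to 125 in EV, and 9 of the 10 had differences below 0. Several of the 10 lay inside the olfactory receptor range in both groups. The olfactory receptor median was itself lower in PIM1 (1.73) than in EV (1.88), so small differences below 0 say little there. Among receptor tyrosine kinases, Met, the hepatocyte growth factor receptor that decorin binds, fell to 6.74, 6.62 and 7.03 in PIM1, against 8.76, 8.75 and 8.63 in EV (difference -1.92, limma adjusted p = 2.12e-05). Egfr, the epidermal growth factor receptor, rose by 0.71 (limma adjusted p = 0.00147). Erbb2, a relative of Egfr, fell by 0.37 (limma adjusted p = 0.0490), and it was not called without EV replicate 2 or 3 or any PIM1 array (0.0997 to 0.139). Erbb4, Igf1r, Insr and Kdr were not called. Of the growth factors, Bmp4 rose by 1.63 and Tgfb3 by 0.91, Igf1 fell by 1.30, and Tgfb1, Tgfb2 and Mstn were not called. The matricellular protein genes Ccn2, Ccn4 and Thbs1 fell by 1.34, 1.11 and 0.82.

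Proteases known to cut decorin or its relatives included several of the widest gaps. Of 16 measured genes 7 were called higher and 1 lower (43.8% and 6.25%, beside 16.1% and 10.9% of all genes), with a median difference of 0.24. The 16 include Pcolce, which encodes a protease enhancer rather than a protease and was not called (0.32). Mmp13, a collagenase, read 9.15, 9.09 and 9.38 in PIM1, against 4.83, 4.41 and 4.57 in EV (difference 4.61, limma adjusted p = 4.51e-07). Mmp3, a stromelysin, and Mmp2, a gelatinase, rose by 3.40 and 3.30. The aggrecanase genes Adamts5 and Adamts4 rose by 2.89 and 1.32, and Mmp9 rose by 1.71. Bmp1, the proteinase that removes the propeptide of biglycan, fell by 0.75 (limma adjusted p = 5.64e-04).

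Other proteoglycan core proteins moved in both directions. Of 31 measured genes 10 were called higher and 6 lower (32.3% and 19.4%, beside 16.1% and 10.9% of all genes), with a median difference of -0.10. Tgfbr3, the TGF-beta co-receptor betaglycan, read 8.62, 8.62 and 8.65 in PIM1, against 5.87, 5.87 and 5.78 in EV (difference 2.79, limma adjusted p = 5.93e-07). Srgn, the intracellular proteoglycan serglycin, rose by 1.64, the basement membrane proteoglycan gene Agrn by 1.19 and the syndecan gene Sdc4 by 0.96. Spock3, a testican, fell by 1.69 and the glypican gene Gpc1 by 1.10. Differences above 3 were found in Bgn, Prelp and Podn, besides Dcn, which chose the family. None of the 31 other core proteins or the 7 other family genes had one. Podn, at 3.19, and Tgfbr3, at 2.79, lay on either side of that cut, and nothing is read from this split. The difference between these lists was not tested.

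Decorin is itself a marker of fibroblasts, and other fibroblast markers differed in both directions. Of 14 markers without Dcn or Lum, 8 were called higher and 3 lower (57.1% and 21.4%, beside 16.1% and 10.9% of all genes). Their median difference was 0.70, and Col1a1, Col1a2 and Col3a1 also stand in the collagen list. Pdgfra, a growth factor receptor of stromal cells, read 10.90, 10.84 and 11.05 in PIM1, against 5.91, 6.45 and 6.34 in EV (difference 4.70, limma adjusted p = 5.84e-07). Dpt and Fbln1, genes of matrix proteins, rose by 2.58 and 1.94 and Pdgfrb by 1.39, whereas Mfap5, a microfibril protein, fell by 1.62. S100a4 and Fap were also called lower (-0.68 and -0.47, limma adjusted p = 0.0171 and 0.0117), Fap inside the olfactory receptor range. Vim, Pi16 and Thy1 were not called (0.28, 0.040 and -0.017). The summed linear signal of the 14 markers was 11970 to 12303 in PIM1 and 6903 to 6967 in EV, and their part in the family's values was not tested. No detection call was used, so no marker can be said to be at 0.

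Markers of other cell types are set beside 16.1% of all genes called higher and 10.9% lower. Of 13 chondrocyte, osteoblast and tendon markers 1 was called higher, Sox9 (0.80), and 1 lower, the tendon factor gene Scx (-0.69), and the list median was -0.14. Their summed linear signal was 597 to 716 in PIM1 and 742 to 814 in EV. Of 10 smooth muscle markers 2 were called higher and 3 lower, Tagln (-1.56) among the lower ones, with summed signals of 408 to 428 in PIM1 and 429 to 439 in EV. Of 10 endothelial markers 0 were called by limma (0 higher and 1 lower at an unadjusted p under 0.05), with summed signals of 83.0 to 101 in PIM1 and 90.0 to 97.9 in EV.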

How the data were processed

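RNA of 3 PIM1 and 3 EV samples was measured on Affymetrix whole-transcript mouse arrays. The deposited values are log2 signals, 1 per probe set and array, made by the authors with Affymetrix Expression Console per the submitters' processing notes. The log base was taken from their range, and the sources used here do not give the background correction, summarization and normalization. Nothing was scaled again. Groups came from the sample titles. The number of arrays limits the precision.

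Probe sets were named from the platform annotation, matched by Entrez identifier to RefSeq GRCm38.p6, which was used for names, chromosomes and gene order. Of 41345 probe sets, 23521 had 1 symbol, 1814 several and 16010 none. For 1082 genes with several probe sets the brightest was used, leaving 22180 genes. PIM1 was set against EV in limma 3.58.1, run in R 4.3.3 (lmFit and eBayes, two-sided, Benjamini-Hochberg over all genes). Intervals are 95% from that fit. Summed signals add 2 to the power of each log2 value. On simulated data the fit recovered 9 of 50 genes changed by 0.5 log2 units, 41 of 50 by 1, 47 of 50 by 2 and 50 of 50 by 4. Of 157 calls 10 were false. Far fewer genes were changed there than were called in these data.

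The members and lists were chosen with earlier results of these data known. The text names the 10 genes, up to 6 genes of a list by smallest p, the 5 profiles nearest to Dcn, its 3 neighbours in rank on either side and the genes around the loci. Egfr, Erbb2, Tlr4, Tgfb3, Igf1, Ccn2, Ccn4, Thbs1, Bmp1, B3galt6, Papss1, Chst11, Col1a2, Col11a1, Epcam, Krt8 and the olfactory receptor gauge were chosen after their values were seen. So were S100a4, Fap, Vim, Pi16, Thy1, Chsy1, Chsy3, Chpf, Chst14, Csgalnact2, Xylt2 and Pcolce. Other settings were eBayes with trend and robust options, quantile normalization, median centring, cyclic loess, the brighter 11090 genes, averaged or separate probe sets, the replicate block, and leaving out each array. Listed genes with no single-symbol probe set were left out. Promoters were searched with Python 3.11.15.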

Additional observations from a re-analysis of the deposited data

How the results depend on the processing

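The Dcn difference was 5.39 to 5.57 over 14 alternatives, and Bgn, Prelp and Podn were called in all 14, at 2.60 to 3.69, 1.93 to 3.46 and 3.06 to 3.33, the low values of Bgn and Prelp coming from averaged probe sets. Fmod, Omd and Epyc were called in none. Of the 9 genes other than Dcn, 3 to 4 were called higher without single arrays, with 3 without EV replicate 3, PIM1 replicate 2 or PIM1 replicate 3, since Lum and Aspn were then not called. Genes called higher among all 22180 numbered 2704 to 3249 without single arrays, against 3575 with all arrays. Genes called lower numbered 1558 under median centring and 1463 to 2224 without single arrays, against 2420. Among the calls 59.6% were higher in PIM1, and 73.5% under median centring. The sign turned for Kera under quantile normalization, median centring and cyclic loess (0.082, 0.052 and 0.085), and for Chadl and Krt8 under median centring (0.029 and 0.019). Without single arrays the sign also turned for Kera (-0.16 to 0.063), Chadl (-0.22 to 0.038), Krt8 (-0.13 to 0.00643) and Epyc (-0.14 to 0.13), and none of these 4 was called. The cause was not tested. Samples of the same number did not deviate together (correlations 0.056, -0.031 and 0.0088). This gave no ground to pair them, but it cannot exclude that they were handled together. With the replicate block 4 of the 9 genes were called higher, Aspn being lost (limma adjusted p = 0.0966). In that setting 3218 of all genes were called higher and 2103 lower. Lum, Omd and Epyc lie at a signal where a fall could hardly be seen.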
